A study of Mus musculus with 12 samples.

Results

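The RNA levels of 35 genes that encode chaperones of the endoplasmic reticulum (ER), sensors of the unfolded protein response and enzymes of ER protein folding and degradation were examined in a line of mouse mammary tumour cells, PYMT-R221A. The genes were taken by symbol from the 55335 genes of the count table, and all 35 were found. Of these, 34 passed the filter on low counts that left 14935 genes for testing. Derl3 had 0 counts in all 12 libraries, which allows at most 3 counts, or 0.0883 to 0.116 CPM (counts scaled to the size of the library, per M) depending on the library, counting error only. The study held 4 groups of 3 libraries of polyadenylated RNA: wild-type cells as the control, cells given 40 µM KCC-07, cells transfected with scramble siRNA, and cells transfected with siRNA against Mbd2 (siMBD2). The series title gives KCC-07 as a small-molecule inhibitor of the MBD2 pathway, and MBD2 is a reader of methylated DNA. All groups came from 1 cell line in culture, and neither the vehicle nor the treatment time is known from the labels. The comparisons asked how the ER genes differed with the compound, how they differed with the knockdown, and whether the effects of both differed.

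Proteins destined for secretion or for membranes enter the ER through the Sec61 channel and fold there with the help of chaperones, of lectins that bind their glycans, and of enzymes that form disulfide bonds. When unfolded proteins accumulate, 3 sensors in the ER membrane respond: IRE1 (Ern1), which splices the Xbp1 transcript, PERK (Eif2ak3), which slows translation and favours ATF4, and ATF6, which is cut in the Golgi to release a transcription factor. The factors made by these branches raise the transcription of chaperones and of the ER-associated degradation machinery (ERAD), which returns misfolded proteins to the cytosol. Gene-level counts do not separate spliced from unspliced Xbp1 and do not measure the cleavage of ATF6 or the phosphorylation of PERK and IRE1.

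The known DNA element of this response is the ER stress response element (ERSE), which pairs a CCAAT box with a CCACG box. CCAAT, then 9 bases of any kind, then CCACG was searched on both strands in the 250 bases before the start of each gene in RefSeq windows of GRCm38.p6. Windows existed for 29 of the 35 genes, of which Ero1l and Ero1lb were found under newer symbols. None was held for Atf6, Hyou1, Hspa13, Manf, Derl1 and Sec61a1. The element stood in 10 of these 29 windows (34.5%) and in 35 of 27025 genes with a window (0.13%). Both the element and the 35 genes were tied to this response beforehand, so these shares are a description and not a test. Sites are shown for BiP (Hspa5), the usual readout of the response, for Ero1lb, whose fitted change with KCC-07 was the largest of the 34 tested, for Herpud1, which varied most between replicates, and for the lectin chaperone Canx. They are printed 5′ to 3′ on the strand of the gene, with the element in capitals. Where the element lies on the opposite strand it reads as CGTGG followed by ATTGG.
Hspa5 (chr2:34772020-34772048, plus strand): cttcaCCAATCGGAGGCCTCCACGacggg
Ero1lb (chr13:12565677-12565705, plus strand): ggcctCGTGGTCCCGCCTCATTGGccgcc
Canx (chr11:50325795-50325823, minus strand): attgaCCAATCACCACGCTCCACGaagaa
Herpud1 (chr8:94386372-94386392, plus strand): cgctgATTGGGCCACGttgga
The Hspa5, Ero1lb and Canx sites are ERSEs, and that of Herpud1 is the related ERSE-II, searched on both strands as ATTGG, 1 base of any kind and CCACG. ERSE-II stood in 1 of the 29 windows (3.45%) and in 10 of the 27025 genes (0.037%). The other genes with an ERSE were Calr, Creld2, Derl3, Dnajc3, Hsp90b1, Pdia6 and Syvn1, and Hsp90b1 held 2 of them. The XBP1-type element was searched as TGACGTGG, found in none of the 29 windows, and as TGACGTGA, found in that of Hspa5 (0.603% and 0.411% of all genes with a window). The amino acid response element bound by ATF4 and CHOP, searched as TGATGNAAN, stood only in the Herpud1 window among the 29 and in 3.89% of all genes with a window. A match to these letters is a description of the window and does not show that a factor binds there.

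The libraries held between 25.8 and 33.96 M counts in total. The genes of interest took 1.06% ± 0.178 of the counts in the control group, 1.18% ± 0.194 with KCC-07, 0.941% ± 0.0229 with scramble siRNA and 1.07% ± 0.0285 with siMBD2 (mean ± SD, n = 3). Mbd2 stood at 72.5 to 83.2 CPM in the 3 scramble libraries and at 30.6 to 35.7 CPM in the 3 siMBD2 libraries, a fitted fold of 0.436 (edgeR adjusted p = 0.000197), and at 72.8 to 77.1 CPM in the control and KCC-07 libraries. Epcam and Cdh1, which mark epithelial cells, were at 220.8 CPM or more in every library. Krt8 and Krt18 were at 150.7 CPM or more. Cldn3 was at 23.9 to 131 CPM, Cldn7 at 2.52 to 16.5 CPM and Krt19 at 0.474 to 3.31 CPM. Of 12 marker genes of leukocytes, endothelium and adipocytes, Adgre1, Cdh5, Adipoq and Plin1 were at 0 in all 12 libraries. The endothelial gene Pecam1 was at 0.701 to 6.48 CPM and the others were at 0.595 CPM or less. The summed leukocyte genes were at 0.168 to 0.743 CPM with KCC-07 and at most 0.0586 CPM in the controls. The line also expressed the mesenchymal genes Vim and Pdgfra. Col1a1 and Pdgfrb were lower, at 2.17 to 51.5 CPM, and Col1a2 and Dcn were at 0.55 CPM or less. The summed level of 6 fibroblast genes was 964 to 1186 CPM in the controls and 439 to 965 CPM with KCC-07. The summed level of 7 epithelial genes was 1144 to 1315 CPM in the controls and 1425 to 1486 CPM with KCC-07, with no overlap. The part of these markers in the results below was not tested. In every group the replicate 3 library stood apart. Mitochondrially encoded transcripts took 2.697% to 3.90% of their counts and 1.45% to 2.32% of those of replicates 1 and 2. In bulk RNA a smaller number of expressing cells and less RNA per cell cannot be told apart.

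With KCC-07, 5 of the 34 tested genes rose and none fell. They were Atf6, Ero1lb, Edem2, Hspa13 and Derl1, which encode a stress sensor, an ER oxidase, an ERAD lectin, an ER chaperone and a part of the ERAD channel. Across all 14935 genes 5.65% passed, 3.58% as higher and 2.08% as lower, in edgeR's quasi-likelihood test with Benjamini-Hochberg adjustment over all of them (adjusted p under 0.05). The median log2 fold change was 0.16 over the 34 and 0.02 over all genes. Above 0 lay 29 of the 34 and 7731 of the 14935. With the labels' replicate number as a block, 13 of the 34 rose, beside 12.8% of all genes. The additional 8 were Hyou1, Ero1l, Eif2ak3, Edem1, Dnajc3, Dnajb11, P4hb and Selenos. Without the 4 libraries of replicate 3 there were 15, beside 15.1% of all genes, and DESeq2 called 8, beside 7.29%. In a fit of the 6 drug-arm libraries alone none of the 34 and 0.00688% of all genes passed. There the 5 genes had edgeR adjusted p from 0.123 (Edem2) to 0.239 (Derl1). The fit behind the 5 calls shares 1 estimate of the spread over all 12 libraries. The ER genes varied less in the siRNA arm than in the drug arm, as given below, so these calls rest partly on the siRNA libraries. The best known chaperones of the response, Hspa5 and Hsp90b1, and its transcription factor Xbp1 did not pass in either fit.

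**Figure D1:**
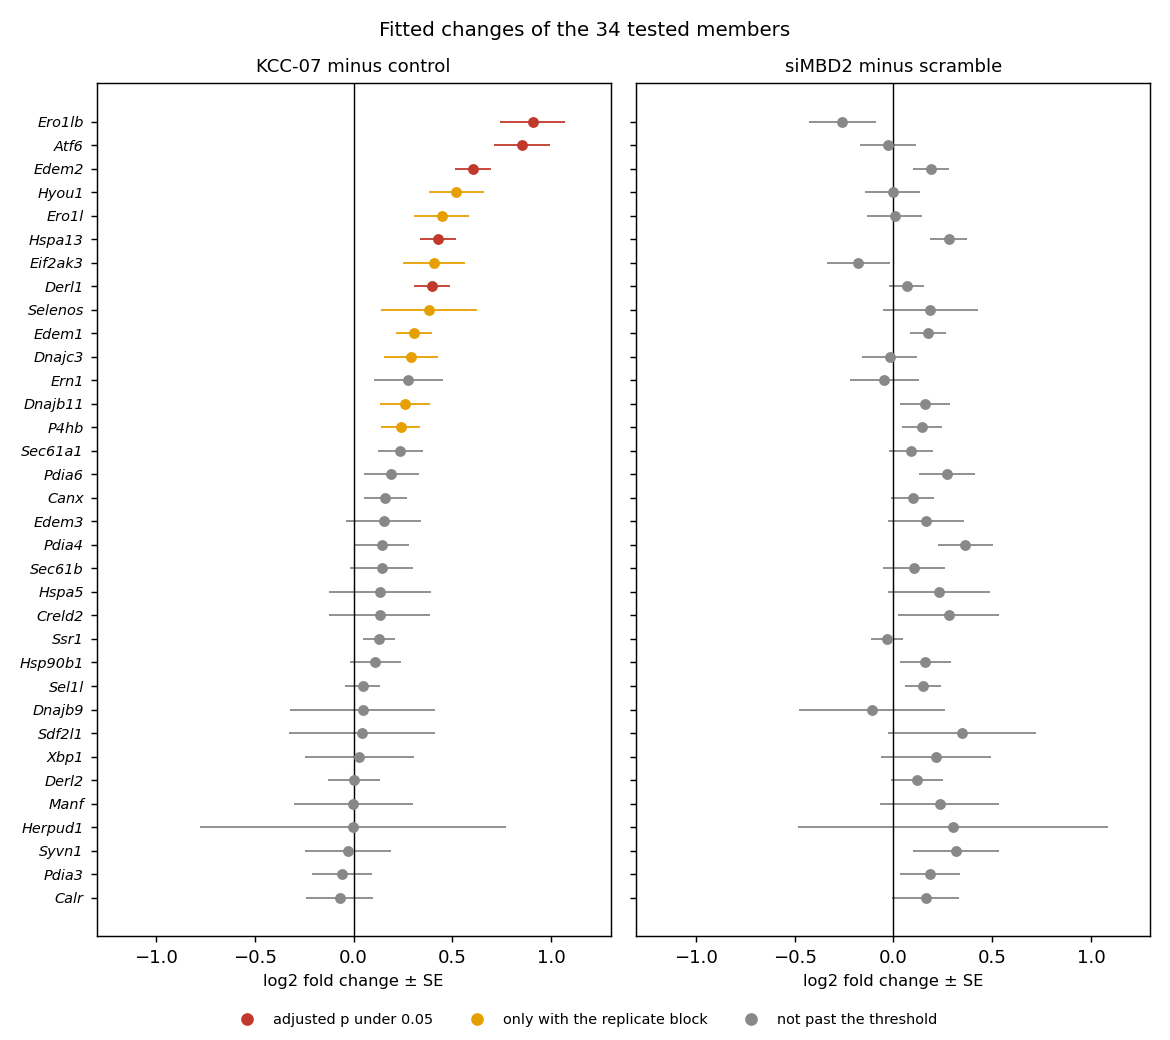
Fitted log2 fold changes ± SE of the 34 tested genes for KCC-07 minus control (left) and siMBD2 minus scramble (right), ordered by the KCC-07 change. Red points passed at an adjusted p under 0.05, orange points passed only in the fit with the replicate block, and grey points passed in neither. Ero1lb, Atf6 and Edem2 lay highest with KCC-07 and no gene passed with siMBD2.

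Among the sensors, Atf6 (chr1:170704674-170867771, GRCm38.p6) stood at 47.0, 50.3 and 53.1 CPM in control replicates 1 to 3 and at 76.1, 78.2 and 117 CPM with KCC-07. Every KCC-07 library lay above every control library, and the KCC-07 library of replicate 3 lay well above the other 2. Atf6 rose by 0.85 ± 0.142 (log2 ± SE), a fold of 1.81 (edgeR adjusted p = 0.00884), and by 0.67 without the 4 libraries of replicate 3 (adjusted p = 0.000412). Eif2ak3, the PERK kinase, stood at 42.0, 52.1 and 32.0 CPM in the controls and at 60.9, 59.1 and 46.9 CPM with KCC-07. The groups overlapped, but the KCC-07 library was the higher of each replicate pair. Eif2ak3, Dnajb9, Derl2, Syvn1 and Sec61a1 each overlap a gene on the opposite strand and are uncertain for that reason. Its log2 difference was 0.41 ± 0.158 (edgeR adjusted p = 0.139) and passed with the replicate block (0.42, adjusted p = 0.0152). Ern1, the IRE1 kinase and endonuclease, had control levels of 19.1, 23.5 and 29.8 CPM and KCC-07 levels of 27.5, 24.8 and 35.6 CPM, which overlapped. It did not pass with the block (adjusted p = 0.0738) or without it (0.28 ± 0.175, edgeR adjusted p = 0.347). Xbp1 (chr11:5520659-5525893) had 258, 273 and 127 CPM in the controls against 257, 263 and 152 CPM with KCC-07. Its levels were alike in the first 2 pairs and low in replicate 3 of both groups, with a log2 difference of 0.03 ± 0.276 (edgeR adjusted p = 0.962).

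**Figure D2:**
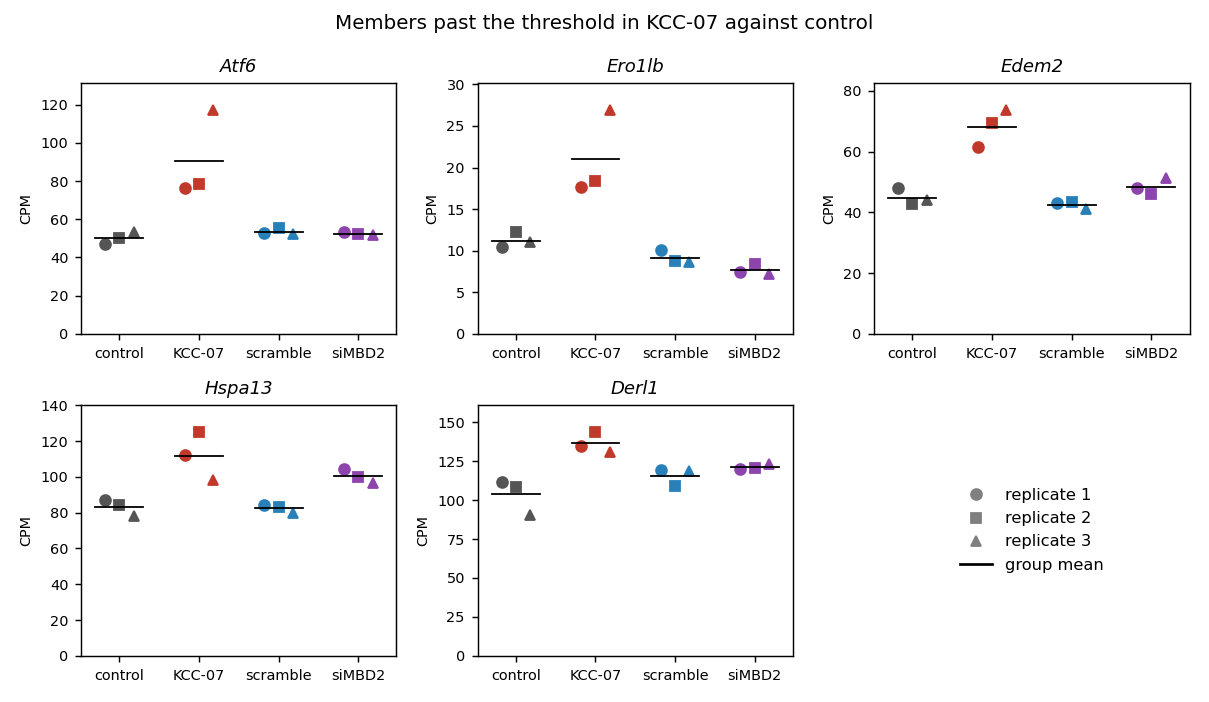
CPM in each of the 12 libraries for the 5 genes that rose with KCC-07, with the replicate number as the marker shape and a line at each group mean. In all 5 panels the 3 KCC-07 libraries lie above the 3 control libraries, and for Atf6 and Ero1lb the highest point is KCC-07 replicate 3 (117 and 26.9 CPM).

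Of the 10 chaperones and co-chaperones, 1 rose with KCC-07, beside 3.58% of all genes. With the replicate block 3 more rose, 4 in total, beside 12.8% of all genes. Hspa13 (chr16:75745431-75767104), an Hsp70-like ATPase of microsomes also called Stch, stood at 86.8, 84.5 and 78.1 CPM in the controls and at 112, 125 and 98.2 CPM with KCC-07. The groups did not overlap, and it rose 1.34-fold (log2 0.43 ± 0.0929, edgeR adjusted p = 0.0230). This call was lost without control replicate 2 (adjusted p = 0.0663), KCC-07 replicate 1 (0.0513) or KCC-07 replicate 2 (0.0578). Hyou1, the large Hsp70-like nucleotide exchange factor that acts on BiP, had 331, 459 and 330.1 CPM in the controls and 551, 579 and 474 CPM with KCC-07. No KCC-07 library fell within the control range, and the log2 difference of 0.52 ± 0.139 just missed the threshold (edgeR adjusted p = 0.0507) and passed with the block (adjusted p = 0.00581). The co-chaperones Dnajb11 and Dnajc3, J-domain partners of BiP, had log2 differences of 0.26 and 0.29 and passed with the block (adjusted p = 0.0236 and 0.0206) and not without it (edgeR adjusted p = 0.220 and 0.212). Dnajb11 stood at 119.6, 145 and 102 CPM against 152, 163 and 124 CPM, and Dnajc3 at 95.9, 105 and 79.8 CPM against 118, 135 and 89.99 CPM. For both genes the groups overlapped while each KCC-07 library exceeded its paired control.

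Hspa5 (chr2:34771970-34777547) encodes BiP, the ER Hsp70 that binds the sensors and is the usual readout of the response. It stood at 1499, 1571 and 846 CPM in the controls and at 1683, 1698 and 913 CPM with KCC-07. The pair differences were small and of 1 sign (log2 0.17, 0.11 and 0.11), while replicate 3 was low in both groups. The fitted difference was 0.13 ± 0.257 (edgeR adjusted p = 0.791, and 0.167 with the block). Hsp90b1, the ER Hsp90 also called GRP94, had 997, 1052 and 804 CPM against 1145, 1107 and 825 CPM. The groups overlapped and the log2 difference was 0.11 ± 0.128 (edgeR adjusted p = 0.638). Its exons overlap a gene on the opposite strand, and since the strand setting of the counting was not given, its level is uncertain. The other 4 genes of this group, the lectin chaperones Calr and Canx and the BiP partners Dnajb9 and Sdf2l1, had log2 differences between -0.07 and 0.16. The secreted ER stress proteins Manf and Creld2 had -0.00 and 0.13, and none of these 6 passed with or without the block. Canx passed without the 4 libraries of replicate 3 (0.19, edgeR adjusted p = 0.0434).

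Disulfide bonds are passed to client proteins by protein disulfide isomerases, which the ERO1 oxidases recharge. Of the 6 genes of this step Ero1lb rose, and Ero1l and P4hb passed with the block only. Of all genes 3.58% rose without the block and 12.8% with it. Ero1lb (chr13:12565874-12611396), the ERO1 form best known from secretory cells, stood at 10.5, 12.2 and 10.99 CPM in the controls and at 17.6, 18.4 and 26.9 CPM with KCC-07. All KCC-07 libraries were above all controls, and the fold was 1.87 (log2 0.91 ± 0.166, edgeR adjusted p = 0.0123). Without the replicate 3 libraries the log2 difference was 0.68 (adjusted p = 0.00573). Ero1l, the more widely expressed oxidase, had 52.6, 56.6 and 56.7 CPM against 66.2, 66.3 and 93.7 CPM. It too separated the groups, with replicate 3 highest under KCC-07, at a log2 difference of 0.45 ± 0.139 (edgeR adjusted p = 0.0792, and 0.0191 with the block). P4hb, the abundant protein disulfide isomerase PDI, stood at 1648, 1607 and 1455 CPM against 1917, 2057 and 1584 CPM, an overlap that came from replicate 3 alone. Its difference of 0.24 ± 0.0992 passed with the block (adjusted p = 0.0403) and not without it (edgeR adjusted p = 0.163). The isomerases Pdia3, Pdia4 and Pdia6 had log2 differences of -0.06, 0.14 and 0.19 and passed in neither fit.

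Of the 9 tested ERAD genes 2 rose, beside 3.58% of all genes. With the block 2 more passed, 4 in total, beside 12.8% of all genes. Edem2 (chr2:155701677-155729475), a mannosidase-like protein that starts the trimming of glycans on misfolded proteins, stood at 47.8, 42.7 and 43.9 CPM in the controls and at 61.6, 69.3 and 73.7 CPM with KCC-07. The groups were well apart, and Edem2 had the smallest adjusted p of the 34 genes (log2 0.61 ± 0.0913, fold 1.52, edgeR adjusted p = 0.00579). Derl1 (chr15:57869502-57892448), a derlin of the retrotranslocation channel, had 111, 109 and 90.6 CPM against 134, 144 and 131 CPM. Its groups did not overlap and it rose 1.32-fold (log2 0.40 ± 0.0891, edgeR adjusted p = 0.0264). The call for Derl1 was lost without control replicate 2 (adjusted p = 0.0548), KCC-07 replicate 2 (0.0629), siMBD2 replicate 1 (0.0516) or siMBD2 replicate 2 (0.0515). The calls for Atf6, Ero1lb and Edem2 were kept in each of the 12 fits that left out 1 library.

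Edem1, another mannosidase-like ERAD protein, stood at 118, 143 and 115 CPM in the controls and at 157, 160.3 and 146 CPM with KCC-07. The groups did not overlap, and the log2 difference of 0.31 ± 0.0902 passed with the block (adjusted p = 0.0178) and not without it (edgeR adjusted p = 0.0670). Selenos, a selenoprotein that links derlins to the p97 ATPase, had 58.3, 56.8 and 35.5 CPM against 73.9, 83.1 and 38.9 CPM. Its KCC-07 library was higher in each pair, but both replicate 3 libraries were below all others, and it too passed with the block only (0.38 ± 0.242, edgeR adjusted p = 0.351 without the block and 0.0248 with it). The ligase Syvn1 and its partner Sel1l, Edem3, Derl2 and Herpud1 passed in neither fit, with log2 differences from -0.03 to 0.15. Nor did the 3 genes of protein entry, Sec61a1, Sec61b and Ssr1, with 0.24, 0.14 and 0.13. Without the 4 libraries of replicate 3 Sec61a1 (0.35, edgeR adjusted p = 0.00326) and Ssr1 (0.23, 0.0266) passed.

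The replicate pairs show how far the KCC-07 difference was shared. Within pairs the median log2 CPM difference of the 34 genes was 0.27, 0.16 and 0.25, with 27, 24 and 28 of them above 0. Over all genes the medians were 0.04, 0.01 and 0.00, with 53.5%, 51.7% and 50.1% above 0. In all 3 pairs 21 genes were higher and 2 were lower, beside 26.3% and 23% of all genes. Because the 34 genes share the same libraries and can move together, such counts are not separate observations. The ranges of the groups did not overlap for 8 genes, all higher with KCC-07, beside 12.3% of all genes that were higher and 10.6% that were lower. They were Atf6, Ero1lb, Edem2, Hspa13, Derl1, Hyou1, Ero1l and Edem1. With KCC-07 the summed epithelial and leukocyte markers lay above the control range, the latter at no more than 0.743 CPM. The summed fibroblast markers reached lower than in the controls, as given above. The epithelial sum was also high in the siRNA arm, at 1394 to 1481 CPM with scramble siRNA and 1298 to 1465 CPM with siMBD2. The part of these markers in the KCC-07 differences was not tested.

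**Figure D3:**
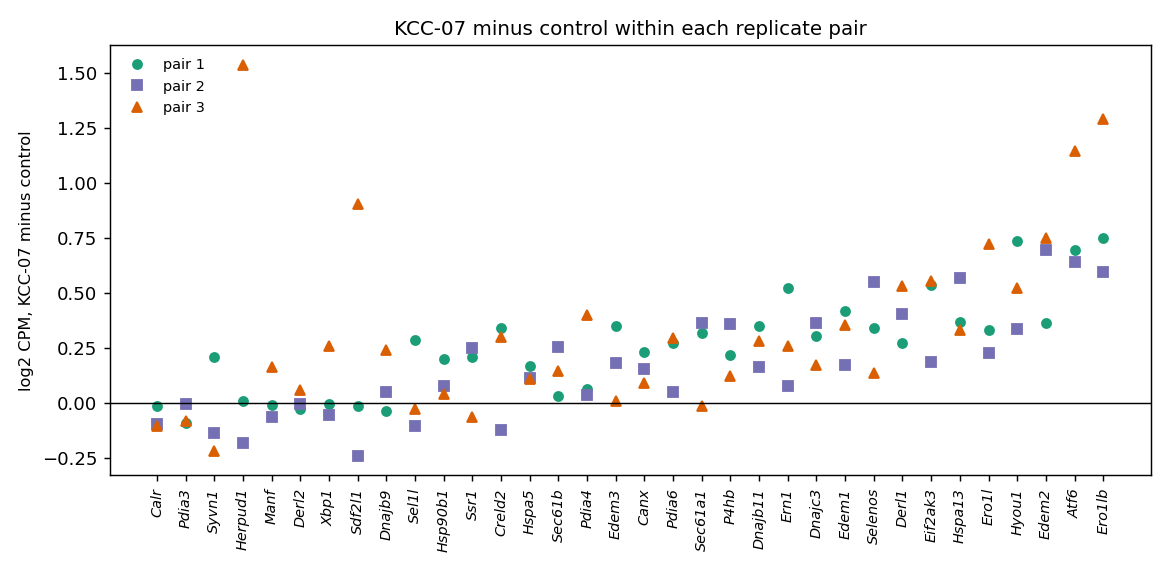
Difference in log2 CPM between the KCC-07 and the control library of each replicate pair, for the 34 tested genes. The genes are in order of their fitted log2 fold change in edgeR. The genes at the right were higher in all 3 pairs, and Herpud1, Sdf2l1, Atf6 and Ero1lb had their largest difference in pair 3 (1.54 for Herpud1).

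In the control and KCC-07 groups most of the ER genes were lower in replicate 3 than in the other 2 libraries. This contrast between replicates is a description with no test, and the genes named for it were chosen after their values were seen. In the controls the difference between replicate 3 and the mean of replicates 1 and 2 had a median of -0.36 on log2 CPM over the 34 genes, against -0.01 over all genes. Of the 34, 29 lay below 0, beside 50.6% of all genes. With KCC-07 the median was -0.35 with 28 below 0, with scramble siRNA -0.03 with 22, and with siMBD2 -0.03 with 20. Of all genes 50.9%, 49.0% and 49.0% lay below 0 in these groups, in that order. More than 1 log2 unit below lay 5 genes in the controls (4.99% of all genes), 3 with KCC-07 (6.48%), and none with scramble siRNA (2.14%) or siMBD2 (1.84%).

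Herpud1 (chr8:94386438-94395377), an ER membrane protein that organises ERAD complexes and is a target of ATF6, XBP1 and ATF4, showed the widest spread. It stood at 219, 233 and 13.6 CPM in the controls, from 7469, 6994 and 470 counts, and at 219.8, 205 and 39.7 CPM with KCC-07. It had 53.6, 63.1 and 39.3 CPM with scramble siRNA and 68.9, 79.6 and 43.9 CPM with siMBD2. Control replicate 3 was 16.6-fold below the mean of the other 2 controls, the 34th lowest such difference among 14935 genes, and KCC-07 replicate 3 was 5.35-fold below its own, the 166th lowest. The KCC-07 difference of Herpud1 was therefore near 0 in pairs 1 and 2 (0.01 and -0.18) and 1.54 in pair 3, and its fitted value was -0.00 ± 0.775.

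Sdf2l1, which holds BiP on its clients, stood at 45.0, 61.3 and 15.3 CPM in the controls and at 44.5, 51.8 and 28.6 CPM with KCC-07. Dnajb9, the co-chaperone ERdj4 and an XBP1 target, had 60.6, 60.1 and 21.7 CPM against 59.0, 62.2 and 25.6 CPM. Manf, a secreted ER stress protein whose exons overlap other genes, had 233, 251 and 105 CPM against 232, 239.6 and 118 CPM. For these genes, as for Xbp1 and Hspa5, replicate 3 was the lowest library of both groups, while replicates 1 and 2 of Sdf2l1 also differed from each other. Replicate 3 was also the lowest in both siRNA groups for Herpud1, Xbp1, Hspa5, Dnajb9, Sdf2l1 and Manf, by 0.18 to 0.76 on log2 CPM. By contrast Atf6, Ero1lb and Ero1l were not low in control replicate 3 and were highest in KCC-07 replicate 3, and Ern1 and Edem3 were highest in replicate 3 of both groups. Of the 10 tested genes with an ERSE or ERSE-II window all 10 were below 0 in control replicate 3, with a median of -0.51. Their values ran from -4.04 (Herpud1) to -0.04 (Ero1lb). Of the 18 with a window and neither element 14 were, with a median of -0.41. These ran from -1.78 (Sdf2l1) to 0.71 (Edem3), so the 2 sets overlapped, and the part of the element was not tested. Over all genes 50.6% were below 0, with a median of -0.01. The same replicate 3 libraries had the higher mitochondrial share given above, and its part in these values was not tested.

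**Figure D4:**
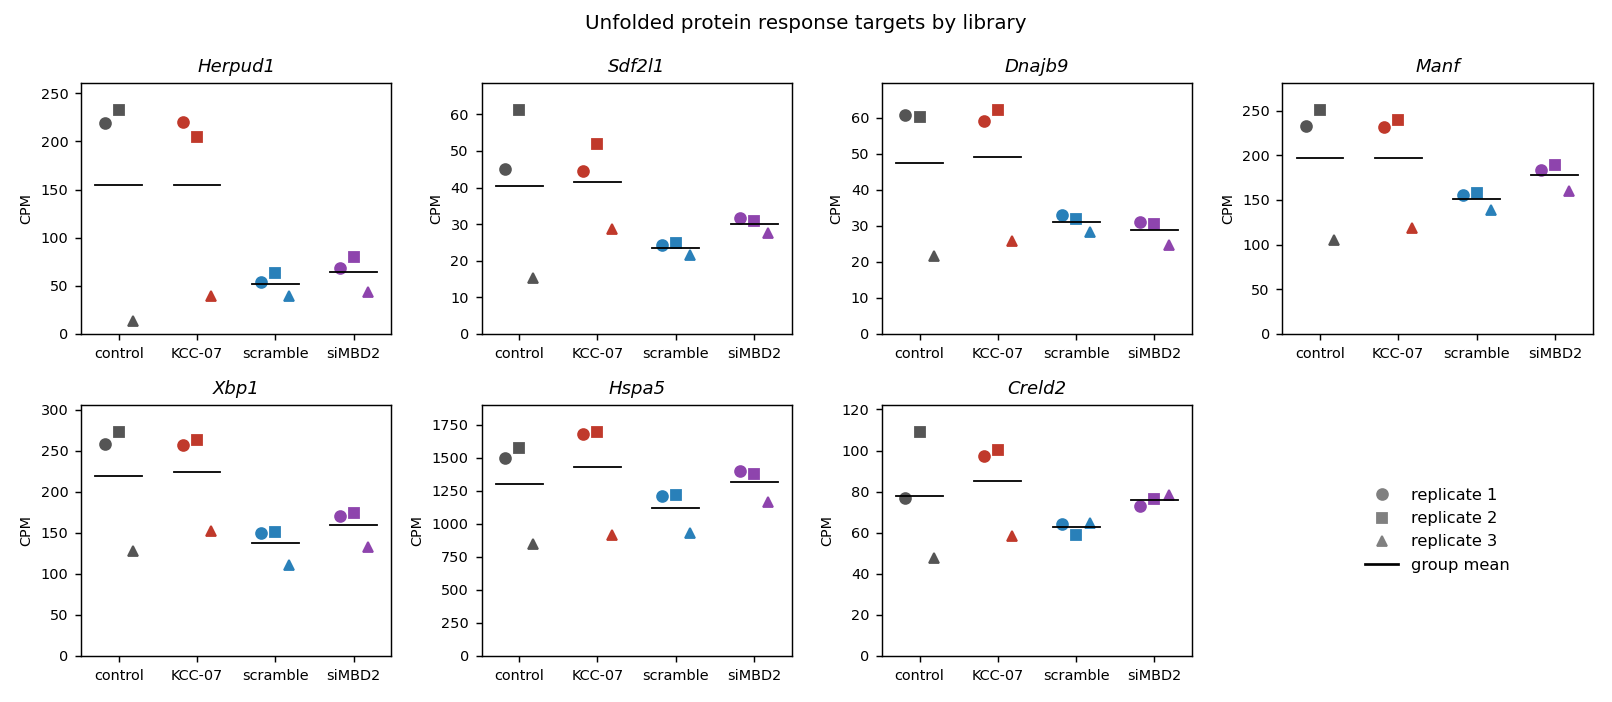
CPM in each of the 12 libraries for 7 targets of the response chosen after their values were seen, with marker shape for the replicate and a line at the group mean. In the control and KCC-07 groups the triangle of replicate 3 lies below the other 2 libraries in each panel, at 13.6 CPM for Herpud1 in the controls, and the scramble and siMBD2 libraries span a narrower range, with replicate 3 lowest in all panels except Creld2.

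**Figure D5:**
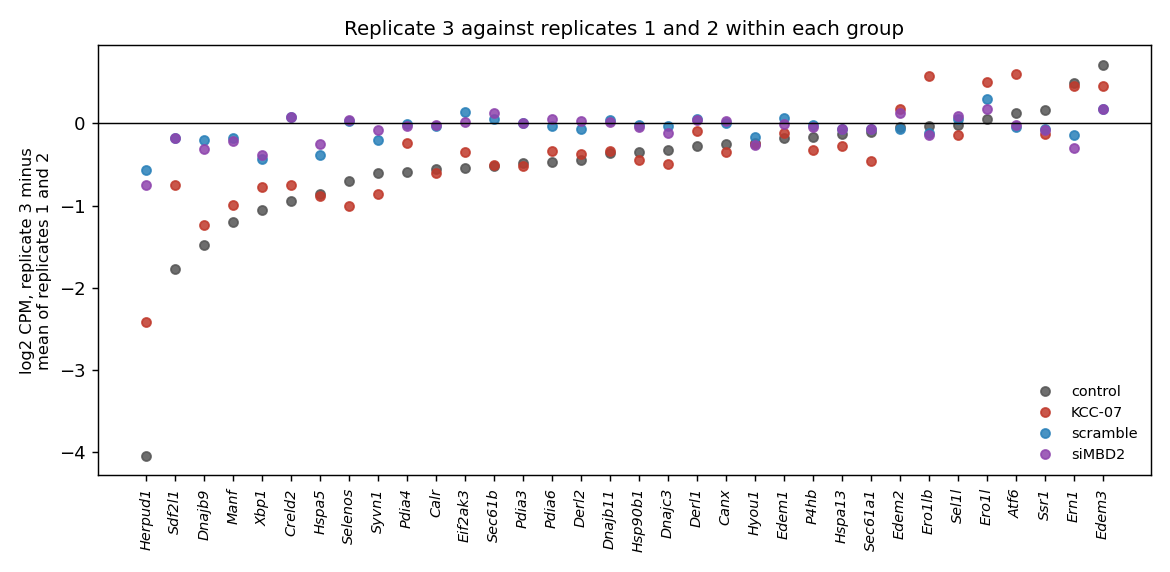
Replicate 3 minus the mean of replicates 1 and 2 on log2 CPM for the 34 tested genes in each group, in order of the control value. Control and KCC-07 points reach -4.04 and -2.42 at Herpud1, while most scramble and siMBD2 points lie near 0.

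The ER genes had a larger spread between libraries in the drug arm than in the siRNA arm. The median SD of log2 CPM within a group was 0.277 in the controls and 0.269 with KCC-07, against 0.227 and 0.238 over all genes. It was 0.0467 with scramble siRNA and 0.0541 with siMBD2, against 0.112 and 0.121 over all genes.

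With siMBD2, none of the 34 genes rose or fell against scramble siRNA in edgeR's quasi-likelihood test, beside 0.0402% of all genes. The block (0.75% of all genes) and DESeq2 (0.562%) called none of them, and without replicate 3 only Pdia4 passed (1.08%). At an unadjusted p under 0.05 there were 2, beside 5.26% of all genes. Of the 34, 26 were above 0, beside 7606 of all 14935 genes, with a median log2 difference of 0.16 (0.00 over all genes). For 21 genes all 3 siMBD2 libraries were above all 3 scramble libraries, beside 10.3% of all genes, and for 2 all were below, beside 11.6%. The 34 genes share these libraries and can move together, so these counts are not 34 separate observations. The differences ran from -0.26 to 0.36, and an exact permutation test of a single gene could not fall below p = 0.1 with 3 libraries against 3.

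The largest difference was that of Pdia4, an isomerase with BiP as a partner, at 278, 285 and 279 CPM with scramble siRNA and 365, 362 and 356 CPM with siMBD2. The groups were far apart next to their spread, and the log2 difference was 0.36 ± 0.138 (edgeR adjusted p = 0.819, and 0.128 with the block). That SE comes from the spread shared by all 12 libraries. In a fit of the 6 siRNA libraries alone Pdia4 passed (adjusted p = 0.00905), as did Pdia6 (0.0352), Hspa13 (0.0473) and Pdia3 (0.0475), beside 0.433% of all genes called higher. Hspa13 stood at 84.3, 83.4 and 79.9 CPM against 104, 99.7 and 96.7 CPM, so that its siMBD2 libraries lay above the scramble range, with a log2 difference of 0.28 ± 0.0929 (edgeR adjusted p = 0.672). Pdia3 and Pdia6 overlap genes on the opposite strand and are uncertain.

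Hspa5 had 1212, 1222 and 931 CPM with scramble siRNA and 1402, 1378 and 1167 CPM with siMBD2. The pairs were all higher with siMBD2 although the groups overlapped, and the difference was 0.23 ± 0.257 (edgeR adjusted p = 1.00). Xbp1 had 149, 151 and 111 CPM against 170.4, 175 and 132 CPM, with the same order within pairs, and a difference of 0.21. The sensors did not share this order: Atf6 had 52.8, 55.3 and 52.2 CPM against 53.2, 52.1 and 52.0 CPM (-0.03), and Ern1 differed by -0.05. The genes lower in every siMBD2 library were Eif2ak3, at 29.5, 31.9 and 33.9 CPM against 27.7, 28.3 and 28.3 CPM (-0.18), and Ero1lb, at 10.1, 8.75 and 8.63 CPM against 7.48, 8.37 and 7.14 CPM (-0.26). Neither passed the test.

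The test of the difference between the KCC-07 effect and the siMBD2 effect gave no call among the 34 genes in edgeR, beside 0.656% of all genes. At an unadjusted p under 0.05 there were 7, beside 14.6% of all genes, and DESeq2 called 2, beside 4.13%. Without the replicate 3 libraries 3 passed, beside 10.6%. Ero1lb and Atf6 had the larger effect under KCC-07 and Pdia4 the larger under siMBD2 (-0.32, edgeR adjusted p = 0.0325). The largest differences were those of Ero1lb, at 1.16 ± 0.236 (edgeR adjusted p = 0.0537), and of Atf6, at 0.88 (adjusted p = 0.0738). With the replicate block within each arm 4 genes passed, all with the larger effect under KCC-07, beside 6.9% of all genes in either direction. They were Ero1lb (1.14 ± 0.211, edgeR adjusted p = 0.0217), Atf6 (0.85 ± 0.142, 0.0157), Eif2ak3 (0.60 ± 0.129, 0.0335) and Hyou1 (0.54 ± 0.119, 0.0360). Eif2ak3 and Hyou1 did not pass without the replicate 3 libraries (edgeR adjusted p = 0.0614 and 0.0983). For Edem2, Hspa13 and Derl1, which rose with KCC-07, the difference of the effects was 0.42, 0.15 and 0.33 and did not pass with the block (adjusted p = 0.0913, 0.390 and 0.0849).

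The scramble libraries were also set against the controls, which the KCC-07 comparison shares. None of the 34 genes passed, beside 8.79% of all genes, with 4 at an unadjusted p under 0.05, beside 27.2% of all genes, and none by DESeq2, which called 15.4%. The median log2 difference was -0.15, and 3 genes were higher in all scramble libraries and 3 lower, beside 16.4% and 16.8% of all genes. With the replicate number as a block Xbp1 fell by 0.62 (edgeR adjusted p = 0.0151), beside 6.42% of all genes that fell, and it had -0.68 ± 0.278 without it (adjusted p = 0.141). The number of calls depended on replicate 3. Without its 4 libraries 18 genes fell and 3 rose (Ern1, Edem3 and Ssr1), beside 19.6% and 21.6% of all genes. Among those that fell were Herpud1 by 1.95 (edgeR adjusted p = 1.95e-05), Sdf2l1 by 1.11, Dnajb9 by 0.89 and Xbp1 by 0.81. The scramble cells differ from the controls in transfection and in study arm, and these cannot be told apart.

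Levels can be compared between genes per length, as CPM per kilobase of exon. In the controls P4hb was highest at 549, followed by Calr at 455, Hspa5 at 309, Pdia3 at 281 and Hsp90b1 at 236. Xbp1 stood at 67.6, above Hyou1 at 51.6. Of the tested genes the oxidase Ero1lb was lowest at 1.68, followed by the sensors Ern1 at 2.96, Atf6 at 5.43 and Eif2ak3 at 6.97, and Ero1l stood at 10.5.

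Beyond the 35 genes, 182 tested genes in 9 lists of the same pathway and its neighbours were followed, lists that were chosen with earlier results known. With KCC-07, 17 of the 182 rose and none fell (edgeR; the background is 3.58% higher and 2.08% lower, as above), with a median log2 difference of 0.11. With the block 40 rose and 3 fell, beside 12.8% and 9% of all genes. Calls among the named genes were kept in all 12 fits without 1 library for Ddit4, Pdia5, Sec24d, Kdelr3 and Sec24a.

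Of 32 other ER folding enzymes 4 rose, beside 3.58% of all genes. Pdia5, a further disulfide isomerase, stood at 15.9, 14.99 and 16.4 CPM in the controls and at 32.0, 30.3 and 33.0 CPM with KCC-07. These groups were the most clearly separated of the pathway, at a log2 difference of 1.01 ± 0.0937 (edgeR adjusted p = 0.000572). Fkbp11, a prolyl isomerase, rose by 0.72, Uggt1, which tests glycoproteins for folding, by 0.46, and Dnajc1, a J-domain protein with an overlapping gene, by 0.31. Their calls were kept in 3, 2 and 2 of the 12 fits without 1 library.

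Of 23 genes of COPII-coated vesicles and ER export 6 rose, the largest number of any list, beside 3.58% of all genes. Sec24d, a cargo-binding coat subunit, had 76.0, 80.8 and 77.7 CPM in the controls and 135, 142 and 109 CPM with KCC-07 (log2 0.72 ± 0.0969, edgeR adjusted p = 0.00373). Kdelr3, a receptor that returns ER proteins from the Golgi, whose exons overlap a gene on the opposite strand, rose by 0.88, Sec24a by 0.42 and the cargo receptor Lman1 by 0.39. The groups did not overlap for any of these 4.

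Of 18 genes of the PERK branch and the integrated stress response 1 rose, beside 3.58% of all genes. With the block 6 rose, beside 12.8% of all genes. Ddit4, an inhibitor of mTORC1, stood at 219, 261 and 256 CPM in the controls and at 481, 482 and 452 CPM with KCC-07 (log2 0.94 ± 0.131, edgeR adjusted p = 0.00393). Its scramble libraries had 453 to 633 CPM and its siMBD2 libraries 489 to 619 CPM, all above the controls. Trib3, Ppp1r15a and Ppp1r15b, a pseudokinase and the phosphatase subunits that reverse PERK's action, had log2 differences of 0.71, 0.64 and 0.26 and passed with the block only (edgeR adjusted p = 0.0361, 0.00872 and 0.0260). Chosen after their values were seen, Ddit3, which encodes CHOP, had 38.1, 50.4 and 5.39 CPM in the controls against 41.9, 38.4 and 17.5 CPM. Chac1, a CHOP and ATF4 target, had 39.4, 51.6 and 3.88 CPM against 55.7, 57.8 and 54.9 CPM, and Atf4 377, 374 and 203 CPM against 397, 387 and 386 CPM. Control replicate 3 was the lowest library of both groups for all 3 genes. Ddit3, Ppp1r15a and Ppp1r15b overlap genes on the opposite strand and are uncertain for that reason. Ddit3 also overlaps another annotated gene of the same name.

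For the edgeR counts of risen genes that follow, 3.58% of all genes were called higher. Of 27 further ERAD genes 2 rose, Man1b1 by 0.44 and Os9 by 0.55, a mannosidase and a lectin that reads its products, and Man1b1 overlaps another gene. Of 21 genes of the oligosaccharyltransferase and glycan assembly 2 rose, Rpn2 by 0.33, with an overlapping gene, and Gfpt1, the entry enzyme of the hexosamine pathway, by 0.67. Of 24 translocon genes 1 rose, near the share of all genes, the signal peptidase subunit Sec11c by 0.34. Of 13 apoptosis genes 1 rose, the death receptor gene Tnfrsf10b by 0.56 (edgeR adjusted p = 0.0386). These calls were kept in 7 (Man1b1), 1 (Os9), 11 (Rpn2), 8 (Gfpt1), 1 (Sec11c) and 4 (Tnfrsf10b) of the 12 fits without 1 library. No gene of the 8 ATF6-like factors and their proteases or of the 16 ER-phagy and ER membrane genes passed in edgeR. At an unadjusted p under 0.05 there were 2 and 5, beside 25.1% of all genes. By DESeq2 1 and 1 rose, beside 7.29% of all genes.

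With siMBD2 no gene of the 9 lists passed in edgeR, with 17 of 182 at an unadjusted p under 0.05, beside 5.26% of all genes. DESeq2 called 4, beside 0.562% of all genes. The fit with the block called 0.75% of all genes. In it Lman1 rose by 0.41 (edgeR adjusted p = 0.0245) and Eif2ak2, the interferon-induced eIF2α kinase PKR, by 0.75 (0.0351). Atp2a2, the calcium pump that fills the ER, fell by 0.51 (0.0215). Eif2ak2 overlaps genes on the opposite strand and is uncertain. Atp2a2 stood at 519, 523 and 540 CPM with scramble siRNA and at 369.6, 368.5 and 370.1 CPM with siMBD2, and overlaps a gene on the opposite strand. The groups were far apart, and without the block its adjusted p was 0.0545.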

How the data were processed

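Gene counts were deposited by the authors as whole numbers per gene and library, with no normalization, per the file headers and values. Per the submitters' processing notes DRAGEN, DESeq2 1.44.0 and the build mm10 (GRCm38.p6) were used, with no step stated. Annotation, strand setting and treatment of reads with several matches are not given in the sources used here.

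Counts were filtered with filterByExpr (minimum count 10, minimum total 15), scaled by TMM and fitted over all 12 libraries with 1 mean per group in edgeR 4.0.16 (R 4.3.3, glmQLFit and glmQLFTest, 8 residual degrees of freedom). Each SE is the size of the log2 fold change over the square root of F. Differences between pairs and replicates used log2 CPM with a prior count of 2. A gene passed at a Benjamini-Hochberg adjusted p under 0.05 over all tested genes of its comparison. The fitting code was tested on simulated data.

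The labels call the libraries biological replicates 1 to 3 in a batch tag, which pairs them. Same-numbered libraries' deviations correlated across genes with r = 0.27, 0.28 and 0.48 in the drug arm and 0.09, 0.15 and 0.42 in the siRNA arm. Crossing replicates 1 and 2 gave 0.30 and 0.17 in the drug arm and 0.21 and 0.18 in the siRNA arm, so the correlations single out replicate 3 only, and pairing 1 and 2 relies on the tag. The block fit had 4 residual degrees of freedom, or 6 where the arms share it. The drug arm's replicate 3 is numbered 4 in its library names, so whether arms share batches is unclear. Nothing further says how separate the cultures were, and p-values measure the spread between these libraries.

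The members and lists were chosen with earlier results of these data known. Values per library were given for members past the threshold with or without the block in any of the 4 comparisons and for Hspa5, Hsp90b1, Xbp1, Atf6, Ern1, Eif2ak3, Ero1l and Ero1lb. Up to 4 genes per list past the threshold with the smallest adjusted p were named. Herpud1, Sdf2l1, Dnajb9, Manf, Pdia3, Pdia4 and Pdia6 were described further after their values were seen. Positions came from GENCODE M21, which held 34 of 35 members with their version. Xbp1 was matched without it. No member had a near-identical copy (95% identity over 50% of the transcript). Alternatives were DESeq2 size factors, other filters, the block, 6 libraries alone, DESeq2 1.42.0 and libraries left out.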

Additional observations from a re-analysis of the deposited data

Results flagged for a closer look

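The effect of KCC-07 differed from that of siMBD2 for 4 of the 34 genes by an interaction test in edgeR with the replicate block. That fit called 6.9% of all genes in either direction. The difference on log2 was 1.14 for Ero1lb, 0.85 for Atf6, 0.60 for Eif2ak3 and 0.54 for Hyou1, each the larger under KCC-07. Without the block these were 1.16, 0.88, 0.58 and 0.52, and the edgeR adjusted p was 0.0537, 0.0738, 0.258 and 0.249. None of the 34 passed there, beside 0.656% of all genes. Without the 4 libraries of replicate 3 Ero1lb and Atf6 passed (adjusted p = 0.0162 and 0.00389) and Eif2ak3 and Hyou1 did not (0.0614 and 0.0983). In that fit, which called 10.6% of all genes, Pdia4 passed with the larger effect under siMBD2 (-0.32, adjusted p = 0.0325). No explanation was tested.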

How the results depend on the processing

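With KCC-07 the count of 5 members became 13 with the replicate block, 8 with DESeq2 and 15 without the 4 libraries of replicate 3. The share of all genes called higher moved from 3.58% to 12.8%, 7.29% and 15.1% in the same fits. The 5 were among the genes called in each of these fits, and the block and the fit without replicate 3 shared 12. In the 6 libraries alone 0 passed, where 0.00688% of all genes did. Leaving out 1 library gave 3 (without KCC-07 replicate 2) to 9 (without KCC-07 replicate 3). With siMBD2 the count of 0 became 4 in the 6 libraries alone (0.433% of all genes called higher) and 1, Pdia4, without replicate 3 (1.08% of all genes). Leaving out 1 library gave 0 to 0. For the difference of the effects the count became 2 with no filter and 1 with a filter at 1 CPM. It was 4 with the replicate block (6.9% of all genes), 2 with DESeq2 (4.13%) and 3 without replicate 3 (10.6%). Leaving out 1 library gave 0 to 2 (1 without control replicate 3, 2 without KCC-07 replicate 3). For scramble against control it became 1 with the block (6.42% of all genes fell) and 21 without replicate 3 (41.1% of all genes in either direction). Leaving out 1 library gave 0 to 10 (10 without control replicate 3, of which 8 fell and 2 rose). The share of all genes is not given here for the other filters and for single libraries left out. The causes were not tested. No fold change that passed reversed its sign under these alternatives. Apart from the calls given here and in the report, the replicate block changed no other call among the members. The low expressed Ero1lb and Ern1 rest on fewer counts than the chaperones.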
